A study of Mus musculus with 4 samples.

Results

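The genes that build ribosomes were examined in RNA-seq of quiescent mouse embryonic fibroblasts (MEFs) with and without Phf2, a histone demethylase family protein that has been linked to the control of ribosomal RNA (rRNA) gene transcription. The 40 genes were chosen by name from 24391 gene symbols, and comprise subunits and cofactors of RNA polymerase I, the proteins that modify and process pre-rRNA, nucleolar proteins and *Myc*. There were 2 WT and 2 *Phf2* KO libraries of primary MEFs from E13.5 embryos. By the labels, all 4 carried the genotype Phf2 flox/flox, ERCre/+, in which CreERT2 is expressed from the Rosa26 locus, and tamoxifen is given for the *Phf2* KO libraries alone. The protocol gives 0.5 µM 4-hydroxytamoxifen (4-OHT) for 7 days in Opti-MEM with 2% charcoal-treated serum. No library had 4-OHT without the floxed alleles, so effects of 4-OHT or Cre and of losing *Phf2* cannot be told apart. The labels number the libraries of each group as replicates without saying which embryos or cultures they came from, so p-values measure the spread between these libraries only.

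RNA polymerase I transcribes one gene type, the repeated rRNA genes in the nucleolus, into a long precursor. Small nucleolar ribonucleoproteins (snoRNPs) guide its methylation and pseudouridylation, and separate assembly lines cut it and fold it into the small and the large ribosomal subunit. The transcription factor Myc activates many of the genes involved when cells leave quiescence, and resting cells need few new ribosomes. Because mRNA was selected on its poly(A) tail and rRNA reads were removed by the authors, the libraries measure the mRNAs of this machinery and not the output of the rRNA genes.

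The libraries held 21094743 to 26094268 counts. The 40 genes took 64380 and 69668 counts of the WT libraries and 54469 and 61771 of the *Phf2* KO libraries, which is 0.258% to 0.270% of each library. A count of 3, used as the limit of detection, was worth 0.116 to 0.145 CPM, the unit in which counts are divided by the TMM-scaled size of their library. This floor covers counting error only. *Phf2* itself was at 138 ± 5.11 CPM (SD, n = 2) in WT and 80.0 ± 13.9 CPM (SD, n = 2) in *Phf2* KO MEFs, so transcript counts of 57.9% of the WT level remained. These counts do not measure the protein, which the study reports as depleted in its *Phf2* KO MEFs by immunoblot. Fibroblast markers were abundant, at a summed 61650 and 68920 CPM over 10 genes in WT against 58740 and 57260 CPM in *Phf2* KO MEFs, and 4 of the 10 were below WT in both *Phf2* KO libraries and 0 above, where 18.0% of all genes tested were below and 15.5% above. Of 6 endothelial markers, *Pecam1*, *Cdh5*, *Cldn5* and *Emcn* were too low to test, *Tek* was near 3 CPM, and *Kdr* was at 18.3 and 8.94 CPM in WT against 12.4 and 5.62 CPM in *Phf2* KO MEFs, higher in replicate 1 of both groups. Of 6 epithelial markers, 5 were too low to test. Libraries of different replicate number differed in other ways. Replicate 1 expressed *Xist* and replicate 2 *Ddx3y* in both groups, and the summed level of 14 macrophage markers was 4039 and 4608 CPM in replicate 1 of WT and *Phf2* KO MEFs against 886 and 1393 CPM in replicate 2.

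Of the 40 genes, 39 were counted well enough to test. *Taf1a* had 0 counts in all 4 libraries and no entry in the annotation used here, so nothing is known of its level. By the quasi-likelihood test of edgeR, with Benjamini-Hochberg adjusted values over 13668 genes, 0 of the 39 differed between *Phf2* KO and WT MEFs at an adjusted p under 0.1 (every adjusted p = 0.999), against 1 of all genes (0.00732%). The targeted gene *Phf2* was not called by this edgeR test either (log2 fold change -0.79, unadjusted p = 0.00332, adjusted p = 0.999). A count of 0 called genes therefore does not show that the genes were unchanged. DESeq2 and limma-voom also called 0 of them. With the replicate number as a further term, which the labels do not state to pair the libraries, edgeR called 2 of the 39, *Myc* lower and *Taf1c* higher. That fit called 1500 of all 13668 genes, a larger share than 2 of 39. DESeq2 with the same term called 0 of the 33 to which it gave an adjusted p, and 302 of all 7550. In the test without this term, at an unadjusted p under 0.05, 1 of the 39 was lower (*Polr1a*) and 0 were higher, against a background of 2.67% lower and 1.54% higher. The median log2 fold change over the 39 genes was -0.02 and that over all genes 0.01, and the values ran from -0.38 for *Myc* to 0.30 for *Taf1c*, with 20 below 0 and 19 above (48.8% of all genes were below). A lower count can come from fewer cells that express a gene or from less RNA per cell, and bulk libraries cannot tell these apart.

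The intervals of the fit set bounds on the differences. The 95% interval of the fitted log2 fold change lay within 0.5 of 0 for 31 of the 39 genes (79.5%), against 43.0% of all genes. Intervals that reached further were those of *Polr1e*, *Taf1b*, *Taf1c*, *Taf1d*, *Fbl*, *Wdr12*, *Gnl3* and *Myc*, of which *Gnl3* had at least 862 and *Myc* at least 680 counts per library and the others at most 457. Replicates lay close together. The median absolute difference between replicates 1 and 2 was 0.09 log2 units in WT and 0.10 in *Phf2* KO MEFs for these genes, and 0.20 and 0.17 for all genes tested, which were not matched for level. The summed level of the genes was 2671 and 2685 CPM in WT and 2629 and 2570 CPM in *Phf2* KO MEFs, with both *Phf2* KO sums below both WT sums.

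**Figure D1:**
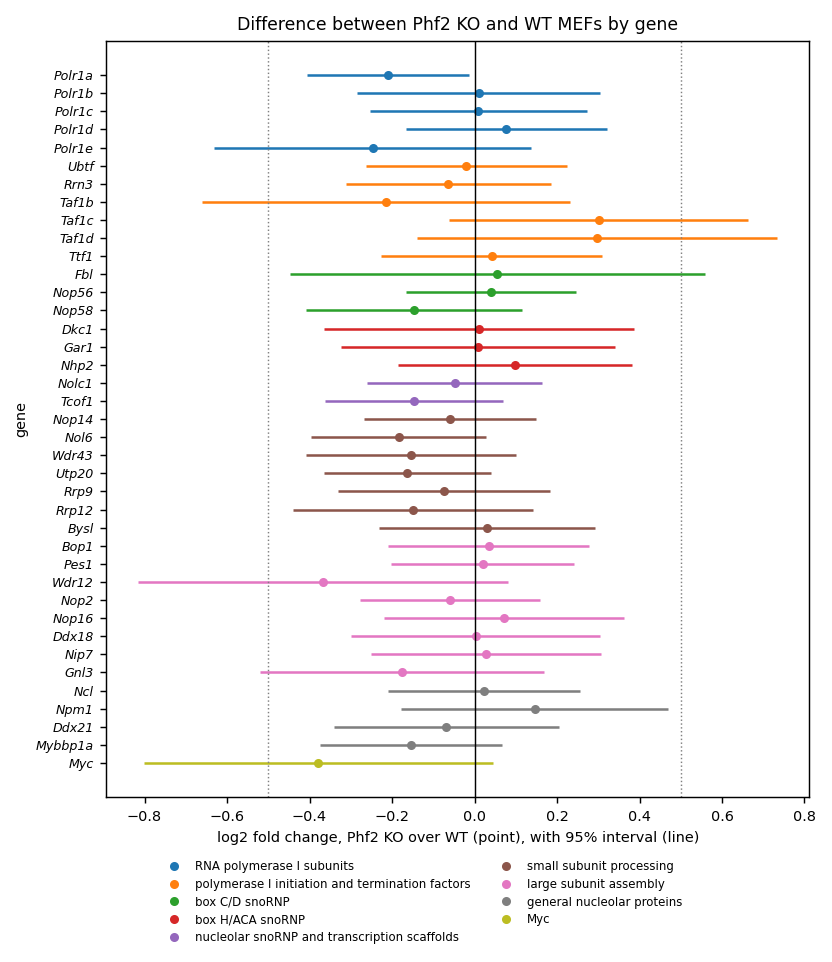
Log2 fold change of *Phf2* KO over WT MEFs for each of the 39 genes tested (points, coloured by role) with its 95% interval from edgeR's fit (lines). All intervals but that of *Polr1a* cross 0, and 31 of 39 lie between the dotted lines at -0.5 and 0.5.

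The individual libraries gave a second description. In 14 of the 39 genes (35.9%) both *Phf2* KO libraries lay below both WT libraries, and in 4 genes (10.3%) both lay above. For all genes tested the shares were 18.0% and 15.5%. When each *Phf2* KO library was set against the WT library of the same number, 17 genes were lower in both numbers (all genes 30.2%), 7 were higher in both (all genes 32.6%), and 15 went opposite ways. The genes share libraries and may vary together, so these shares carry no test. They also move with scaling: by library size alone the counts were 17 below and 3 above, and with the size factors of DESeq2 13 and 4.

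**Figure D2:**
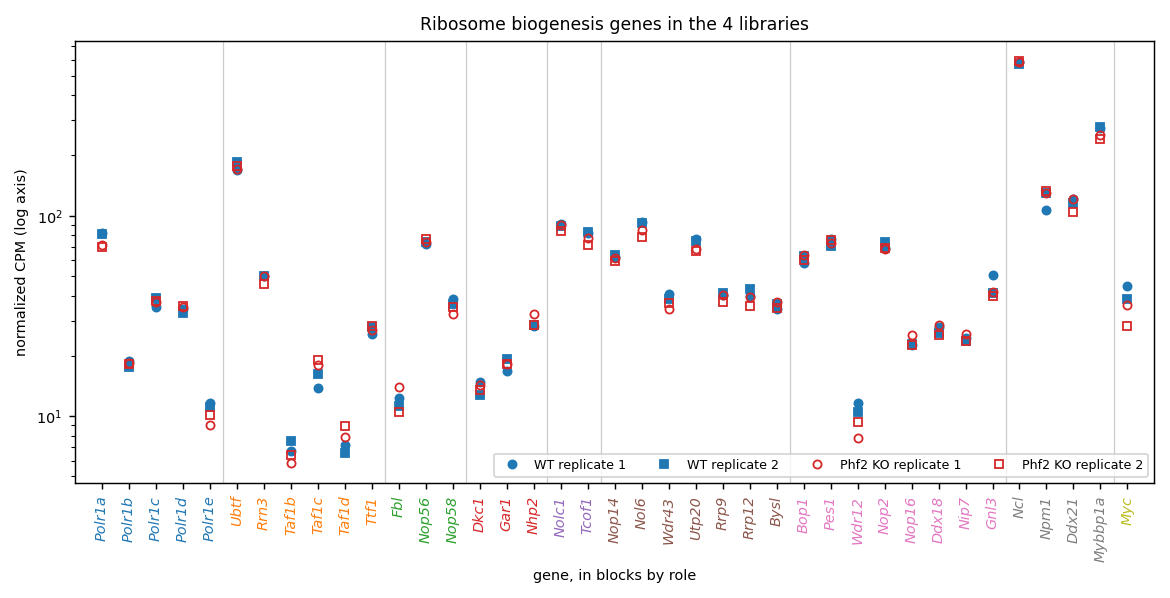
Normalized CPM (log axis) of each of the 39 genes in the 4 libraries, in blocks by role. Filled blue symbols are WT and open red symbols *Phf2* KO MEFs, circles replicate 1 and squares replicate 2, and for most genes the 4 symbols lie on top of each other.

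Levels differed far more between genes than between groups. Per kilobase of annotated exon, the most abundant mRNA in WT MEFs was that of *Ncl* at 70.2 CPM per kb, followed by *Mybbp1a* at 47.7 and *Npm1* at 44.4 CPM per kb. The least abundant were *Wdr12* at 2.27, *Polr1e* at 2.92 and *Polr1b* at 3.15 CPM per kb. The order at either end depends on the length used, here that of all annotated exons of a gene together. This was 2665 bases for *Npm1* and 5803 for *Mybbp1a*, against 1633 and 4358 in the single transcripts searched for copies below. For *Ncl* both lengths were 8257 bases. So the mRNAs of *Ncl*, *Mybbp1a* and *Npm1* stood above those of the *Polr1* subunits tested, in resting cells of both groups. That did not hold for each nucleolar protein: in WT MEFs *Fbl* was at 10.1 and *Polr1a* at 12.4 CPM per kb. Protein levels were not measured here. Some of these levels are uncertain, because reads of 50 bases cannot be placed where another locus holds the same sequence. The share of 50-base windows of the transcript with an exact copy elsewhere in mm9 was 83.5% for *Fbl*, 67.9% for *Ddx18*, 47.3% for *Npm1*, 40.2% for *Nop56*, 22.3% for *Taf1d*, 21.1% for *Pes1* and 10.3% for *Wdr12*, and under 10% for the others. How the authors counted such reads is not given in the sources used here.

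The genes for subunits of RNA polymerase I gave mixed values. *Polr1a* encodes the largest subunit, which forms the active site, and lies on chromosome 6 of mm9 (71859047 to 71929350, forward strand). The WT libraries had 1969 and 2105 counts of it against 1474 and 1673 in the *Phf2* KO libraries. Its level was 81.7 and 81.1 CPM in the WT libraries and 71.1 and 69.6 CPM in the *Phf2* KO libraries, so the groups did not overlap and lay much further apart than the replicates within either. The log2 fold change was -0.21 (95% interval -0.41 to -0.01), or 86.4% of the WT level, with an unadjusted p of 0.0401 that did not survive adjustment over all genes. Leaving out each library in turn gave -0.23 to -0.19. An annotated gene on the other strand, *Gm16601*, overlaps its exons, and the counting is stated to use strand.

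*Polr1e*, a subunit found in polymerase I and in neither of the other nuclear polymerases, was at 11.6 and 11.1 CPM in WT and at 9.03 and 10.1 CPM in *Phf2* KO MEFs. Both *Phf2* KO libraries were the lower ones, but the interval of the log2 fold change of -0.25 (-0.63 to 0.14) included 0. The other catalytic subunit, *Polr1b*, had a log2 fold change of 0.01 (-0.28 to 0.30), an interval that includes the value of *Polr1a*, and the difference between these subunits was not tested. *Polr1c* and *Polr1d*, which polymerase III also uses, were at 0.01 (-0.25 to 0.27) and 0.08 (-0.17 to 0.32). *Polr1d* was the only subunit gene with both *Phf2* KO libraries above both WT libraries. The 5 further subunits counted here, which are shared with other polymerases (*Polr2e*, *Polr2f*, *Polr2h*, *Polr2k* and *Polr2l*), had a median of 0.15, led by *Polr2k* (0.27) and *Polr2e* (0.23), and 0 of them passed the test.

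The factors that bring polymerase I to the promoter were near their WT levels where they were abundant. *Ubtf* encodes the architectural protein UBF, which coats active rRNA genes. It was at 168 and 186 CPM in WT and at 172 and 177 CPM in *Phf2* KO MEFs. Both *Phf2* KO values lay between the WT values, and the log2 fold change was -0.02 (-0.26 to 0.22). *Rrn3* encodes TIF-IA, the growth-regulated factor that makes polymerase I competent to initiate. Its levels were 50.2 and 49.9 CPM in WT and 50.2 and 45.7 CPM in *Phf2* KO MEFs, so that 1 of the *Phf2* KO libraries equalled WT and the other was lower, with a log2 fold change of -0.06 (-0.31 to 0.19). *Ttf1*, the termination factor, was at 0.04 (-0.23 to 0.31).

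The subunits of selectivity factor SL1, which binds the rRNA promoter together with TBP, lay on both sides of their WT levels. *Taf1c* (chromosome 8, 122121875 to 122129122, reverse strand) was at 13.8 and 16.3 CPM in WT and at 18.1 and 19.0 CPM in *Phf2* KO MEFs. Both *Phf2* KO libraries were higher than both WT libraries, with a log2 fold change of 0.30 (-0.06 to 0.66) and 333 to 457 counts per library. With the replicate number as a further term, edgeR called *Taf1c* higher and DESeq2 did not call it. *Taf1d* was at 7.18 and 6.51 CPM in WT and at 7.92 and 8.90 CPM in *Phf2* KO MEFs. It was also higher in both (0.30, interval -0.14 to 0.73), but its introns hold 8 annotated snoRNA genes and 22.3% of its transcript windows have a copy elsewhere. *Taf1b* was the other way round, at 6.68 and 7.48 CPM in WT and at 5.84 and 6.37 CPM in *Phf2* KO MEFs (-0.21, interval -0.66 to 0.23), from 121 to 194 counts. The gap between *Taf1c* and *Taf1b* had the same direction within each replicate number, with log2 ratios of 0.39 and 0.23 for *Taf1c* and of -0.19 and -0.23 for *Taf1b*.

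**Figure D3:**
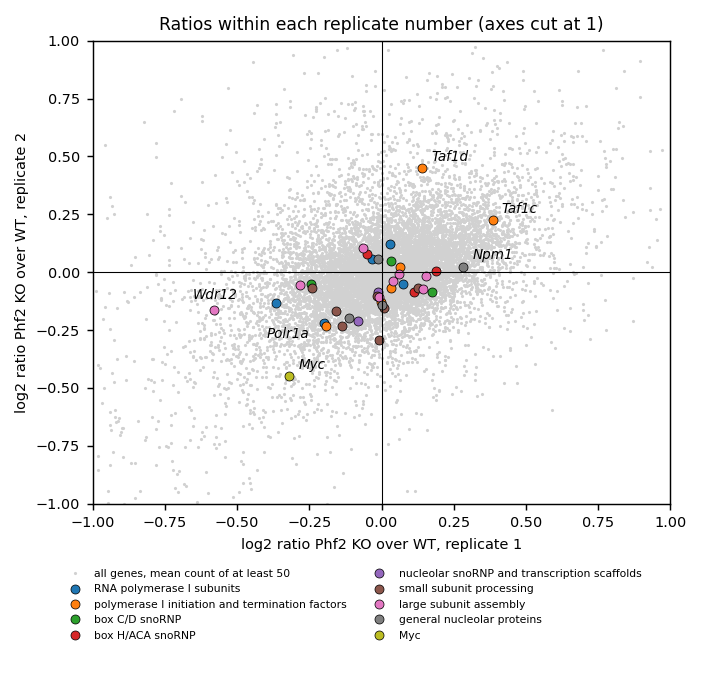
Log2 ratio of *Phf2* KO to WT in replicate 1 (x axis) and in replicate 2 (y axis) for the 39 genes (coloured by role) and for all genes with 50 or more counts on average (grey). Of the genes with a label, *Myc*, *Wdr12* and *Polr1a* lie to the lower left of the origin and *Taf1c*, *Taf1d* and *Npm1* to the upper right. Some genes without a label, such as *Polr1e* and *Taf1b*, also lie to the lower left.

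Genes for the core proteins of the modifying snoRNPs mostly had overlapping groups, with *Nop58* and *Nhp2* as the exceptions. *Fbl* encodes fibrillarin, the methyltransferase of the box C/D snoRNPs, and was at 12.4 and 11.2 CPM in WT and at 13.9 and 10.5 CPM in *Phf2* KO MEFs. The *Phf2* KO libraries lay on either side of WT (0.06, interval -0.45 to 0.56), and the many copies of *Fbl* sequence elsewhere make this the least certain value of the group. Its partners *Nop56* and *Nop58* were at 0.04 (-0.17 to 0.25) and -0.15 (-0.41 to 0.12), with both *Phf2* KO libraries below both WT libraries for *Nop58*. *Dkc1*, the X-linked gene of the pseudouridine synthase dyskerin in the box H/ACA snoRNPs, was at 14.9 and 12.8 CPM in WT and at 14.4 and 13.52 CPM in *Phf2* KO MEFs. It was higher in replicate 1 than in replicate 2 of both groups and did not separate them (0.01, interval -0.37 to 0.39). The other H/ACA proteins gave 0.01 for *Gar1* and 0.10 for *Nhp2*, which was above WT in both *Phf2* KO libraries. *Nolc1*, a chaperone of snoRNPs, was at -0.05, and *Tcof1*, which encodes the scaffold treacle, at -0.15 with non-overlapping groups.

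Of the roles with 5 or more genes, small subunit processing had the most one-sided values. Of 7, 5 had both *Phf2* KO libraries below both WT libraries and 0 had both above (all genes 18.0% and 15.5%). A log2 fold change below 0 was found in 6 (all genes 48.8%), with a median of -0.15. The differences were small, and 0 of 7 reached an unadjusted p under 0.05. *Nol6*, a component of the small subunit processome that assembles on nascent pre-rRNA, was at 92.9 and 92.1 CPM in WT and at 84.5 and 78.3 CPM in *Phf2* KO MEFs (-0.18, interval -0.40 to 0.03). Both *Phf2* KO libraries were lower by more than the gap between the WT replicates. The processome genes *Utp20* (-0.16), *Wdr43* (-0.15) and *Nop14* (-0.06) and the gene *Rrp12* (-0.15), which acts later in the export of the pre-40S particle, had the same order of libraries. *Utp20* was the most even of them, with log2 ratios of -0.16 and -0.17 in replicates 1 and 2, whereas *Rrp12* had -0.01 and -0.29. *Rrp9*, a protein of the U3 snoRNP, was at -0.07 and *Bysl*, which acts with the late pre-40S particle, at 0.03, both with overlapping groups.

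A wider list was read beside the small subunit genes. It comes from the same 4 libraries, so it is a description and gives no independent support. Of 43 other genes of small subunit processing, 18 (41.9%) had both *Phf2* KO libraries below both WT libraries and 2 (4.65%) had both above, with a median log2 fold change of -0.08. For all genes tested the shares were 18.0% below and 15.5% above. Of the 43, the furthest from 0 were *Fcf1* at -0.38, for an endonuclease-like processome protein, and *Wdr36* at -0.34, for another processome subunit. Their groups did not overlap, but 0 of the 43 passed the test and 0 had an unadjusted p under 0.05. The log2 ratios in replicates 1 and 2 were -0.77 and -0.05 for *Fcf1* and -0.49 and -0.18 for *Wdr36*. The value of *Fcf1* thus came mostly from replicate 1. Among 44 other genes of large subunit assembly, 15 (34.1%) were below and 2 (4.55%) above, with a median of -0.05. They were led by *Nsa2* at -0.42 and *Nifk* at -0.32, and 0 passed. In replicates 1 and 2 the log2 ratios were -0.78 and -0.01 for *Nsa2* and -0.46 and -0.15 for *Nifk*. Of 7 further snoRNP proteins and assembly factors, 2 were below and 0 above, with a median of -0.10, led by *Nufip1* (-0.25) and *Shq1* (-0.25). Their ratios in replicates 1 and 2 were -0.48 and -0.02 for *Nufip1* and -0.30 and -0.18 for *Shq1*. The summed level of these lists and the 5 polymerase subunits, 99 genes in all, was 3611 and 3633 CPM in WT and 3548 and 3534 CPM in *Phf2* KO MEFs, and the median of the 99 log2 fold changes was -0.07.

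**Figure D4:**
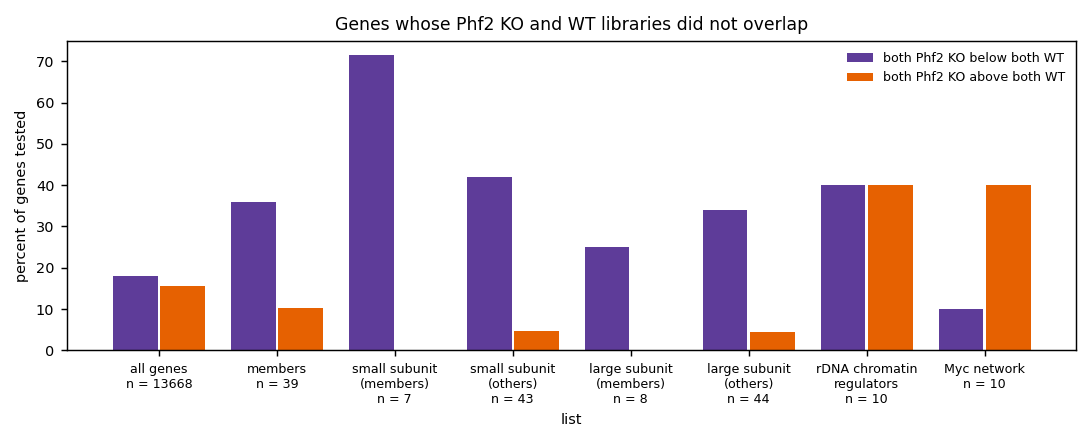
Percent of genes tested in each list (y axis, number under each name) with both *Phf2* KO libraries below both WT libraries (purple) or above both (orange). Against 18.0% and 15.5% of all genes, 71.4% of the 7 small subunit genes and 41.9% of the 43 others of that pathway were below, and 0% and 4.65% were above.

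Genes of large subunit assembly were more mixed, and their best known complex was split. Pes1, Bop1 and Wdr12 form the PeBoW complex, which is needed to mature the 28S and 5.8S rRNAs. *Wdr12* (chromosome 1, 60133712 to 60155489, reverse strand) had 280 and 272 counts in the WT libraries against 161 and 225 in the *Phf2* KO libraries, or 11.6 and 10.5 CPM against 7.77 and 9.36 CPM. Both *Phf2* KO libraries were the lower ones. The log2 fold change of -0.37 (-0.81 to 0.08) came more from replicate 1, with a ratio of -0.58, than from replicate 2, with -0.16. *Pes1* at 0.02 (-0.20 to 0.24) and *Bop1* at 0.03 (-0.21 to 0.28) did not share it. The difference between the subunits was not tested. *Nop2*, which encodes a methyltransferase of 28S rRNA, was lower in both *Phf2* KO libraries by a small amount (-0.06), and *Gnl3*, for the GTP-binding protein nucleostemin, was at -0.18 with overlapping groups and at -0.01 without WT replicate 1, which stood above the other 3 libraries. *Nop16*, *Ddx18* and *Nip7* were at 0.07, 0.0026 and 0.03.

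Among the abundant nucleolar proteins, *Ncl* (nucleolin) was the most deeply counted gene, with 12101 to 14793 counts per library. It lies on chromosome 1 from 88241294 to 88256030 on the reverse strand and hosts 3 snoRNA genes. Its level was 589 and 570.1 CPM in WT and 584 and 593 CPM in *Phf2* KO MEFs. The groups overlapped, and the interval of the log2 fold change of 0.02 (-0.21 to 0.26) was set by the spread of the fit and not by counting error. *Npm1*, for nucleophosmin, a chaperone of ribosomal proteins, was at 106 and 130.4 CPM in WT and at 129 and 133 CPM in *Phf2* KO MEFs. WT replicate 1 stood below the other 3 libraries, and the log2 fold change was 0.15 (-0.18 to 0.47). *Ddx21*, an RNA helicase, was at -0.07 (-0.34 to 0.21). *Mybbp1a*, a nucleolar regulator that associates with rRNA transcription and with Myb, was at -0.16 (-0.38 to 0.07), with both *Phf2* KO libraries lower.

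*Myc* had the largest absolute log2 fold change of the 39 genes. It lies on chromosome 15 (61816946 to 61821929, forward strand, 3 exons), and had 1080 and 1002 counts in the WT libraries against 744 and 680 in the *Phf2* KO libraries. The levels were 44.8 and 38.6 CPM in WT and 35.9 and 28.3 CPM in *Phf2* KO MEFs. Both *Phf2* KO libraries were below both WT libraries, and in each group replicate 2 was the lower one. The mean was 41.7 ± 4.38 CPM (SD, n = 2) in WT and 32.1 ± 5.39 CPM (SD, n = 2) in *Phf2* KO MEFs, or 77.0% of WT. The log2 fold change was -0.38 (standard error 0.16, 95% interval -0.80 to 0.05), with an unadjusted p of 0.0695 from edgeR's quasi-likelihood test. Within replicate numbers the log2 ratios were -0.32 and -0.45. That test has no term for the replicate number. When the number was a further term, edgeR called *Myc* lower and DESeq2 did not call it. With *Phf2* KO replicate 1 left out the value was -0.56, and with *Phf2* KO replicate 2 left out -0.22. *Max*, the partner that Myc needs to bind DNA, was at 103 and 102 CPM in WT and at 103 and 102 CPM in *Phf2* KO MEFs, with no gap between groups or replicates beyond 1 CPM. The list of that network leaves out *Myc* itself and holds its paralogs, its partner and antagonists, and the related factors *Mlx* and *Mlxip*. Over its 10 tested genes, 1 was below and 4 were above WT in both libraries (all genes 18.0% and 15.5%). The median was 0.09, led by *Mycl* (-0.71, from under 1 CPM in each library) and *Mlxip* (0.18).

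**Figure D5:**
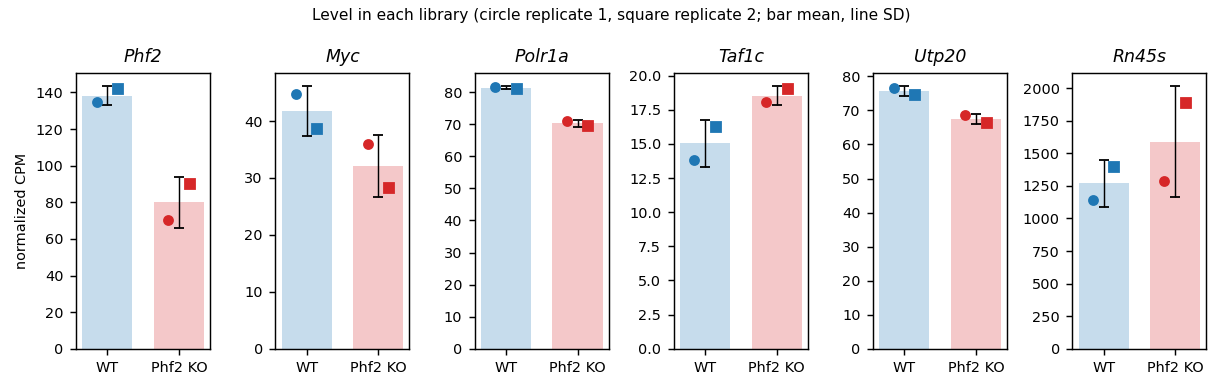
Normalized CPM of *Phf2*, *Myc*, *Polr1a*, *Taf1c*, *Utp20* and *Rn45s* in each library (circles replicate 1, squares replicate 2), with bars for the mean and lines for the SD of the 2 libraries of a group. The *Phf2* KO points lie below the WT points for *Phf2*, *Myc*, *Polr1a* and *Utp20*, above them for *Taf1c*, and on both sides of the higher WT point for *Rn45s*.

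Myc and Max bind the E-box CACGTG, so the promoters of the genes were read for these letters. The motif is its own reverse complement, and windows from 250 bases before to 50 after each start in RefSeq (GRCm38.p6) were searched. Of 33 genes with a window, 6 held the motif (18.2%), against 8.09% of 27025 genes. The other 7, *Myc* among them, were not listed and were not searched. The matches are printed 5′ to 3′ on the strand of the gene, with the E-box in capitals, because they are the only sequence feature compared here that relates the genes to *Myc*:
Rrn3, chr16:13780472-13780501, forward: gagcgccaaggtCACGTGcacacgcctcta
Rrn3, chr16:13780639-13780668, forward: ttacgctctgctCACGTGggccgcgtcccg
Wdr43, chr17:71616220-71616249, forward: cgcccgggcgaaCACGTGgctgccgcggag
Utp20, chr10:88826765-88826789, reverse: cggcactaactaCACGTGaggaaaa
Pes1, chr11:3963965-3963994, forward: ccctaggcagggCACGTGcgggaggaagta
Nop2, chr6:125131811-125131840, forward: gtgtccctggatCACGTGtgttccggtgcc
Mybbp1a, chr11:72441355-72441376, forward: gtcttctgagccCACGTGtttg

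*Rrn3* held 2 E-boxes, which begin at positions -215 and -48 from its start. That of *Nop2* begins at -60, and those of *Pes1*, *Wdr43*, *Utp20* and *Mybbp1a* lie within the first 50 transcribed bases. The 6 genes had log2 fold changes from -0.16 (*Utp20*) to 0.02 (*Pes1*), with a median of -0.11. In 4 of them (*Wdr43*, *Utp20*, *Nop2* and *Mybbp1a*) both *Phf2* KO libraries were below both WT libraries. This position was held by 35.9% of the 39 genes and 18.0% of all genes. For *Nop2* it rested on 68.97 CPM in *Phf2* KO replicate 2 against 69.0 CPM in WT replicate 1. The 26 tested genes whose window held no match had a median of 0.01, from -0.37 to 0.30, with 6 below and 4 above. The 7 that were not searched had a median of -0.15, with 4 below and 0 above. A match of letters is a description and no evidence that Myc binds there in these cells, and no such data were used.

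Regulators of rRNA gene chromatin were listed beside the machinery, since Phf2 has been placed among them. *Suv39h1*, a histone H3 lysine 9 methyltransferase that Phf2 has been reported to recruit to rRNA genes, was at 18.6 and 16.5 CPM in WT and at 15.5 and 14.9 CPM in *Phf2* KO MEFs, lower in both (-0.20, interval -0.54 to 0.13). *Phf8*, a paralog that activates rRNA genes, was at 35.8 and 31.8 CPM in WT and at 36.1 and 36.5 CPM in *Phf2* KO MEFs (0.10, interval -0.18 to 0.38). The largest value of the 10 regulators was that of *Sirt7*, a deacetylase that associates with polymerase I, at 0.22, with both *Phf2* KO libraries above WT. Of the 10, 4 were below and 4 above WT in both libraries (all genes 18.0% and 15.5%), the median was 0.0034, and 0 passed the test.

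The table also has a row for *Rn45s*, the 45S pre-rRNA, which was looked up after the values of the other genes had been seen. The WT libraries had 27548 and 36281 counts on it against 26715 and 45431 in the *Phf2* KO libraries. The level was 1143 and 1398 CPM in WT and 1289 and 1890 CPM in *Phf2* KO MEFs, with overlapping groups and a log2 fold change of 0.32 (-0.28 to 0.92). These are the reads left after poly(A) selection and after removal of rRNA reads, and replicate 2 had more of them in both groups. They do not measure the rate at which the rRNA genes were transcribed.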

How the data were processed

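RNA-seq libraries of 2 WT and 2 *Phf2* KO MEF cultures were single-end reads of 50 bases. Adapters were trimmed by the authors with Trim Galore, reads of rRNA were taken out with bowtie2, and the rest was mapped to MGSCv37 (mm9) with STAR as reverse stranded. The authors deposited the raw counts per gene symbol from featureCounts. Versions, the annotation release and the treatment of reads that map to several places are not given in the sources used here. A deposited table of the authors' own DESeq2 comparison (fold changes and p-values) was not used.

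The counts were fitted with edgeR 4.0.16 in R 4.3.3 (filterByExpr, TMM, glmQLFit and glmQLFTest with genotype as the only term). Benjamini-Hochberg adjustment ran over all 13668 genes, with a threshold of 0.1. CPM values are scaled by TMM, fold changes are *Phf2* KO over WT, and 95% intervals come from the fit. The floor of 3 counts covers counting error only. DESeq2 1.42.0, limma 3.58.1 (voom), other scalings and filters, the replicate number as a block and fits without each of the libraries were alternatives. The fit was also run on simulated counts with changes larger than any seen in these genes and without a difference between replicate numbers. That run therefore does not show how the fit treats small differences in libraries like these.

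Gene positions, exon lengths and overlaps are from an annotation of mm9, in which 39 of 40 genes were found by symbol. Copies of 50-base windows were searched with BLAST 2.17.0. Promoter windows are from RefSeq (GRCm38.p6). Every library value is given for *Polr1a*, *Rrn3*, *Ubtf*, *Ncl*, *Npm1*, *Fbl*, *Dkc1*, *Myc* and the 8 genes with the largest absolute log2 fold change among those whose groups did not overlap. In other lists the 2 genes with the largest values are named, beside *Phf2*, *Phf8*, *Suv39h1*, *Xist* and *Ddx3y*. *Max*, *Rn45s* and other genes given library values outside this rule were picked with their values in view. The genes, lists and rules were chosen with earlier results of these data known. Of the wider lists, *Polr1f*, *Polr1g*, *Polr1h*, *Noc2l* and *Efl1* were not analysed here.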

Additional observations from a re-analysis of the deposited data

How the results depend on the processing

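The number of genes called was 1 in the main test, 64 with DESeq2 (10 higher, 54 lower), and 0 with limma-voom, at an adjusted p under 0.05, and with any library left out. The number of ribosome biogenesis genes called was 0 under each of these. The sources give the replicate numbers as labels and state no pairing. In the counts, libraries of the same number were the most alike. The chi-square per degree of freedom between their counts was 18.8 and 14.6, against 35.1 to 55.1 for all other pairs. The main test has no term for the number, so differences such as those in *Xist* and the macrophage markers enter its spread. Across 11553 genes with 50 or more counts on average, the difference between replicates in WT correlated with that in *Phf2* KO MEFs (r = 0.85), and over the 39 ribosome biogenesis genes with r = 0.19, both across genes that are not independent. With the replicate block, edgeR called 1500 genes (789 higher, 711 lower) and 2 of the 39, *Myc* (log2 fold change -0.38, edgeR's adjusted p = 0.00154) and *Taf1c* (0.30, edgeR's adjusted p = 0.0949), whereas the replicate block in DESeq2 called 302 genes (183 higher, 119 lower) of the 7550 to which it gave an adjusted p, and 0 of the 33 among the 39 that had one (*Myc* 0.21 from DESeq2). *Polr1e*, *Taf1b*, *Taf1d*, *Fbl*, *Dkc1* and *Wdr12* had none and could not be called. The edgeR block fit has 1 residual degree of freedom. At an unadjusted p under 0.05 it held 5 of the 39 (*Polr1a*, *Taf1c*, *Nol6*, *Wdr12* and *Myc*) and 2673 of all 13668 genes. The test without the block held *Polr1a* alone and 576 of all genes. DESeq2 with the block held 1 of the 39, *Myc*, and 927 of all 18924 genes. DESeq2 without the block, limma-voom and the fit of genes of any count held 0 of the 39.

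The median of the 39 log2 fold changes was -0.0304 by library size alone and -0.0868 to 0.00199 with each library left out, the only sign change being without *Phf2* KO replicate 2. By library size alone, the values of *Polr1b* (-0.00148), *Polr1c* (-0.000803), *Dkc1* (-0.00157), *Gar1* (-0.00187) and *Ddx18* (-0.0101) turned negative, and so did that of *Ddx18* with limma-voom (-0.00134), with genes of any count (-0.00192) and with the CPM filter (-0.000481). With each library left out, 23 genes kept their sign and 16 did not, and their ranges were -0.0564 to 0.0746 for *Polr1b*, -0.0483 to 0.0674 for *Polr1c*, -0.078 to 0.0375 for *Ubtf*, -0.134 to 0.00199 for *Rrn3*, -0.162 to 0.243 for *Fbl*, -0.11 to 0.137 for *Dkc1*, -0.0762 to 0.0965 for *Gar1*, -0.105 to 0.00333 for *Nolc1*, -0.022 to 0.0792 for *Bysl*, -0.0151 to 0.0825 for *Bop1*, -0.0497 to 0.0868 for *Pes1*, -0.0126 to 0.147 for *Nop16*, -0.0876 to 0.0852 for *Ddx18*, -0.0352 to 0.0866 for *Nip7*, -0.0153 to 0.0584 for *Ncl* and -0.178 to 0.0319 for *Ddx21*. The causes were not tested. With 2 libraries a group, 8 of the 39 intervals left differences beyond 0.5 log2 units undecided.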

Other observations

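Genes that host snoRNAs in their introns and make little or no protein were read as a further list beside the snoRNP proteins. Over 10 such genes the median log2 fold change was 0.09, with 1 gene below and 2 above WT in both *Phf2* KO libraries (all genes 18.0% and 15.5%), and 0 passed edgeR's test after adjustment. *Snhg12* was at 41.7 and 37.8 CPM in WT and at 26.8 and 32.5 CPM in *Phf2* KO MEFs. Both *Phf2* KO libraries were lower, with a log2 fold change of -0.42 (95% interval -0.78 to -0.06) and an unadjusted p of 0.0301. *Snhg1* was at 6.39 and 3.89 CPM in WT and at 2.51 and 4.12 CPM in *Phf2* KO MEFs, so that its log2 fold change of -0.63 came from replicate 1 alone, with ratios of -1.35 and 0.08. The unadjusted call rate over all genes was 2.67% lower and 1.54% higher.

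Over 12 proliferation genes the summed level was 248 and 150.0 CPM in WT and 213 and 168 CPM in *Phf2* KO MEFs, lower in replicate 2 of both groups, and 0 genes had groups that did not overlap. The median difference of replicate 2 from replicate 1 was -0.72 log2 units in WT and -0.21 in *Phf2* KO MEFs, where 4 of the 12 (*Top2a*, *Cdk1*, *Tyms* and *Rrm2*) were higher in replicate 2. Over the 39 ribosome biogenesis genes the same medians were -0.01 and -0.05.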
